A study of Caenorhabditis elegans with 46 samples.

Results

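The second day without food was set against the first in wild-type Caenorhabditis elegans: 2 arrays of N2 worms fasted for 48 h against 2 arrays of N2 worms fasted for 24 h, 4 of the 46 arrays of the series. The arrays were chosen by their titles alone. Worms had been fed until day 2 of adulthood and were then left without food, so the 48 h worms were 4-day adults and the 24 h worms 3-day adults, and age moves with fasting time in this comparison. Fed N2 worms of the same ages (2 arrays at 48 h, 2 at 24 h) carry the age without the fast. Worms fasted for 36 h (3-day adults, 2 arrays) and 18 h (2-day adults, 2 arrays) cover a similar stretch of the fast on other arrays, and fed worms at 0 h (2-day adults, 2 arrays) give the starting level. All of these worms were labelled wild type, with no mutation or transgene, and total RNA of the worms was hybridised to 1 Affymetrix array per sample, whose values are intensities on a linear scale.

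C. elegans eats bacteria, which it grinds in the pharynx and digests in the intestine with lysozymes, that cut bacterial cell walls, and with lysosomal-type proteases. When food runs out the adult stops most egg production, draws on stored fat and shifts its signalling through insulin-like peptides, which act on the DAF-2 receptor and hold the transcription factor DAF-16 in check. Its cuticle is built of collagens made by the hypodermis, and its body wall muscle moves by thin filaments whose regulators include troponins and calponin-like proteins.

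The second day changed few genes beside the first 18 h. With limma, 55 of 22548 probe sets (0.244%) passed an adjusted p of 0.05 between 48 h and 24 h of fasting, 27 higher (0.12%) and 28 lower (0.124%) at 48 h. Fasting for 18 h against fed worms at 0 h, by contrast, called 8247 probe sets (36.6%), 4013 higher (17.8%) and 4234 lower (18.8%). The central 95% of all log2 differences lay between -0.38 and 0.37 for 48 h against 24 h, and between -1.12 and 1.57 for 18 h against 0 h. At least 2-fold differences, called or not, numbered 19 higher and 61 lower for 48 h against 24 h. The same count gave 1423 higher and 880 lower for 18 h against 0 h.

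The count on the second day depended on how the replicates were treated. Arrays with the same replicate number deviated together, and with the number as a block 233 probe sets were called (1.03%), 100 higher (0.443%) and 133 lower (0.59%), all 55 among them. The count was 18 without replicate 1 of the 48 h group, 18 without replicate 2 of the 24 h group, 48 without replicate 2 of the 48 h group and 75 without replicate 1 of the 24 h group. With the values as deposited, not quantile normalised, 74 probe sets were called and 70.3% of them were higher at 48 h, against 49.1% in the quantile-normalised values. The median of all probe sets was 0.07 as deposited and 0.00 after normalisation (log2, 48 h minus 24 h). Median intensity was 81.8 and 84.0 in the worms fasted for 48 h and 78.2 and 75 in those fasted for 24 h. In 16 of the 55 probe sets 1 of the compared groups averaged under 100 units. In all 55 the 2 arrays at 48 h lay on the same side of the 2 arrays at 24 h. The 55 were chosen on these same values, so this is no further support, here or for single genes below. The share over all probe sets was not counted. Below, "called" means called without the block unless the block is named. In RNA from bulk worms, fewer cells of a type and less RNA per cell cannot be told apart.

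Among the losses were a lysozyme gene and peptidase genes. ilys-5, which encodes an invertebrate-type lysozyme, read 732 and 959 units at 48 h of fasting and 3448 and 2851 units at 24 h. Fed worms held 9258 and 10751 units at 48 h, against 9133 and 9388 at 24 h. All fasted arrays lay below all fed arrays at both ages, and the 48 h fasted arrays were lowest of all. The log2 difference of 48 h against 24 h of fasting was -1.93 (SE 0.13, adjusted p = 7.39e-07), and the other probe sets of the gene gave -2.27 and -1.92. Probe sets of this gene can cross-hybridise with related sequences by their design class, so their agreement is not independent support. Over the fast, ilys-5 gave 8058 and 7386 units after 12 h, 6565 and 5321 after 18 h, and 1198 and 1328 after 36 h. The level thus fell little in the first 12 h and most between 18 h and 36 h.

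ctsa-1.2, a serine carboxypeptidase gene of the cathepsin A type, read 134 and 132 units at 48 h of fasting against 456 and 372 at 24 h. In fed worms it read 3174 and 3034 units at 48 h against 2550 and 2436 at 24 h. Fasting and feeding did not overlap at either age, and the log2 difference of the second day was -1.81 (SE 0.16, adjusted p = 3.01e-05), after -1.49 for 18 h against 0 h. K12H4.7, a gene for a putative serine protease, read 374 and 418 units at 48 h against 1038 and 1125 at 24 h, with fed arrays between 3278 and 3575 at both ages (log2 difference of the fasted worms -1.56, SE 0.11, adjusted p = 1.06e-06). C17H12.8 read 344 and 388 units at 48 h against 1076 and 1273 at 24 h (-1.79, SE 0.20, adjusted p = 0.000299). Its fed arrays lay between 1510 and 2049 units, and at 12 h of fasting it still read 2013 and 2268, within the fed range at 0 h of 1873 to 2271. K12H4.7, C17H12.8 and the other genes named here by a sequence name were chosen after their values were seen.

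The largest gains among called genes with a gene-class name were those of vmo-1 and spi-2. vmo-1, named for its likeness to a vertebrate egg vitelline membrane protein, read 285 and 240 units at 48 h of fasting against 78.5 and 75.3 at 24 h (log2 1.51, SE 0.20, adjusted p = 0.00194). Fed worms also read higher at the later age, averaging 189 units at 48 h against 104.9 at 24 h. spi-2, a serine protease inhibitor gene, read 184 and 295 units at 48 h against 83.7 and 62.8 at 24 h (1.43, SE 0.24, adjusted p = 0.0147), and its fed arrays read 71.6 and 66.1 against 41.2 and 29.1. The spi-2 call was lost at an offset of 0 (adjusted p = 0.0748) or 1 (0.0651), without replicate 2 of the 48 h group (0.166) and without replicate 2 of the 24 h group (0.224). In both genes the groups did not overlap, the fed change had the same sign and was smaller, and the difference between the fasted and the fed change was not called. zig-3, a gene for a secreted immunoglobulin-domain protein, read 389 and 375 units at 48 h against 196 and 195 at 24 h (0.92, SE 0.14, adjusted p = 0.00596). Its fed arrays stayed between 63.0 and 71.3 units. T20D4.11 read 398 and 339 units against 160.4 and 132 (1.27, SE 0.17, adjusted p = 0.00217), and C54F6.20 read 323 and 298 against 162 and 126 (1.02, SE 0.12, adjusted p = 0.000509). C54F6.20 was near the bottom of the scale in fed worms, at most 21.6 units at 0, 24 and 48 h. It was the only gain among the 11 probe sets called in all 4 fits that left out 1 of the compared arrays. The other 10 were 3 of ilys-5, 2 of C17H12.8, and 1 each of ctsa-1.2, K12H4.7, col-20, clik-1 and a probe set with several listed genes.

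**Figure D1:**
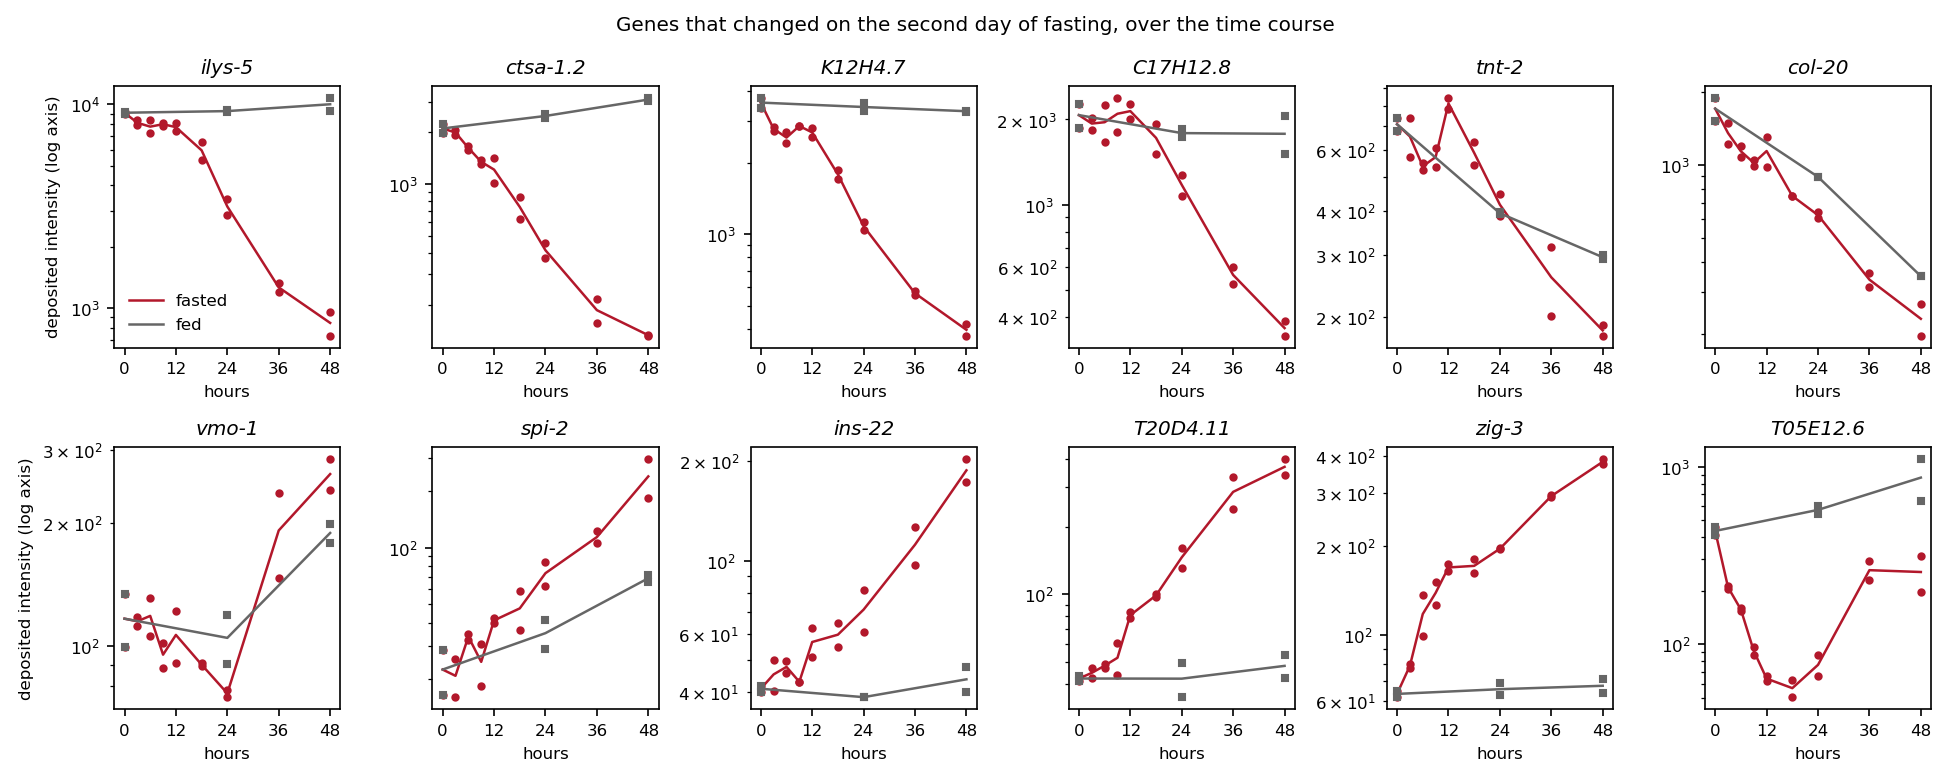
Deposited intensity (log axis, arbitrary units) against hours for 6 genes that were lower (top) and 6 that were higher (bottom) at 48 h than at 24 h of fasting; points are single arrays, lines join group means, red is fasted and grey is fed. ilys-5 fell to 732 and 959 units at 48 h, against 3448 and 2851 at 24 h, while the fed arrays stayed at 9133 or above; T05E12.6 turned upwards after 24 h without reaching the fed level.

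Whether a second-day change was late, a continuation or a reversal was read from the first 18 h, on arrays that the second-day comparison does not use. A change was counted as continued where 18 h against 0 h was called in the same direction, as reversed where it was called in the opposite direction, and as late where it was not called. A change not called early may still have been present. Of the 27 gains, 15 were continued, 6 were late and 6 were reversals of an early fall. Of the 28 losses, 19 were continued, 6 were late and 3 were reversals of an early rise. Over all probe sets 17.8% were called higher and 18.8% lower at 18 h, so that 55.6% of the gains were continued beside 17.8%, and 67.9% of the losses beside 18.8%. Reversals made up 22.2% of the gains, beside 18.8%, and 10.7% of the losses, beside 17.8%, shares near or below the background that are no result about these probe sets. With the replicate block the 100 gains split into 57 continued, 25 late and 18 reversed, and the 133 losses into 84 continued, 26 late and 23 reversed. The block called 45.9% of all probe sets at 18 h, 21.1% higher and 24.8% lower, so that its reversals, 18.0% of the gains and 17.3% of the losses, were below those shares too. The early call count fell to 5055 without replicate 2 of the 18 h group, and as deposited 64.2% of the early calls were higher, against 48.7% after normalisation.

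Late gains included ins-22 and icmt-1. ins-22, which encodes an insulin-like peptide, read 202 and 173 units at 48 h of fasting against 81.3 and 60.97 at 24 h (log2 1.12, SE 0.15, adjusted p = 0.00217). At 18 h it had read 64.7 and 54.9 units, against 41.9 and 40.1 in fed worms at 0 h, a log2 difference of 0.26 that was not called. icmt-1, for an isoprenylcysteine carboxyl methyltransferase that finishes the C-terminus of prenylated proteins, read 126 and 105.2 units at 48 h against 44.9 and 37.6 at 24 h (1.01, SE 0.14, adjusted p = 0.00237). Because icmt-1 is dim, its log2 difference ran between 0.71 and 1.28 over the offsets tried, and that of ins-22 between 0.87 and 1.31. Neither pair of groups overlapped.

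Late losses included tnt-2, a troponin T gene of the muscle thin filament. It read 177 and 189.5 units at 48 h of fasting against 449 and 387 at 24 h (log2 -1.39, SE 0.19, adjusted p = 0.00247). At 12 h of fasting it had been at 782 and 842 units, above the 738 and 678 of fed worms at 0 h. Fed worms read 292 and 301 units at 48 h against 398 and 392 at 24 h, a log2 difference of -0.44 that was not called.

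Among the reversals, T05E12.6 showed the deepest early fall of the genes that turned upwards. It read 62.8 and 50.3 units at 18 h of fasting against 456 and 413 in fed worms at 0 h (log2 -2.70, adjusted p = 8.9e-07). It then read 197 and 313 units at 48 h against 65.9 and 87.1 at 24 h (1.45, SE 0.25, adjusted p = 0.0147), and 229.6 and 293 at 36 h. Its level at 48 h was still below the fed arrays of that age, at 637 and 1099 units. cpn-4, a calponin family gene, read 316 and 296 units at 48 h against 192 and 149 at 24 h (0.76, SE 0.13, adjusted p = 0.0131) after a log2 difference of -0.85 in the first 18 h. At 48 h it lay near the fed arrays of that age, which read 278 and 305. With 1 of the compared arrays left out, the value of cpn-4 ran between 0.69 and 0.84, and that of T05E12.6 between 1.08 and 1.83. Both calls, like those of ins-22, icmt-1, tnt-2 and vmo-1, were lost in at least 1 such fit. vmo-1 was also in this class, with a log2 difference of -0.65 for 18 h against 0 h.

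In the opposite direction, the probe set with the largest loss, which has no listed gene, read 182 and 424 units at 48 h of fasting against 1080 and 1407 at 24 h (log2 -2.28, SE 0.37, adjusted p = 0.0103). It had reached 2891 and 3711 units at 12 h, against 206 and 309.9 in fed worms at 0 h, so most of its early rise was gone by 48 h, when fed arrays read 285 and 250. T01D3.6 read 424 and 456 units at 48 h against 851 and 708 at 24 h (-0.94, SE 0.14, adjusted p = 0.00518), after 1043 and 948 units at 18 h of fasting against 444 and 608 in fed worms at 0 h. Its fed arrays read 792 and 769 units at 48 h against 619 and 651 at 24 h. Leaving out replicate 1 of the 48 h group gave -1.62 for the unnamed probe set and -0.87 for T01D3.6, and both calls were lost.

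The replicate block added reversals that the fit without it did not call, and the following were chosen after their values were seen. acdh-1, a short- and branched-chain acyl-CoA dehydrogenase gene of the propionate shunt, read 1893 and 2633 units at 48 h of fasting against 728 and 1269 at 24 h. hphd-1, for an oxidoreductase of the same shunt, read 375 and 325 units at 48 h against 228 and 179.5 at 24 h. The log2 differences were 1.04 for acdh-1 (adjusted p = 0.147, and 0.0201 with the block) and 0.73 for hphd-1 (adjusted p = 0.524, and 0.0445 with the block). Without replicate 1 of the 24 h group the value for acdh-1 was 0.58. Both had fallen early, with log2 differences of -2.16 and -2.36 for 18 h against 0 h, and both read below the fed arrays at 48 h. nhr-68, a nuclear receptor gene known to act on the propionate shunt, read 940.2 and 904 units at 48 h against 616 and 553 at 24 h (0.54, adjusted p = 0.102, and 0.025 with the block). It had not fallen early, with a log2 difference of 0.53 for 18 h against 0 h, and so was no reversal. No list of the shunt was made, so these genes say nothing about the shunt as a whole. dct-7, known as a DAF-16-controlled gene, read 358 and 276 units at 48 h against 875 and 471 at 24 h (-1.21, adjusted p = 0.163, and 0.0405 with the block), after an early log2 difference of 3.27. The block call of dct-7 was lost without quantile normalisation (-0.99, adjusted p = 0.0912). Its fed arrays read 403 and 358 units at 48 h, the lower of them level with the higher fasted array of that age.

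**Figure D2:**
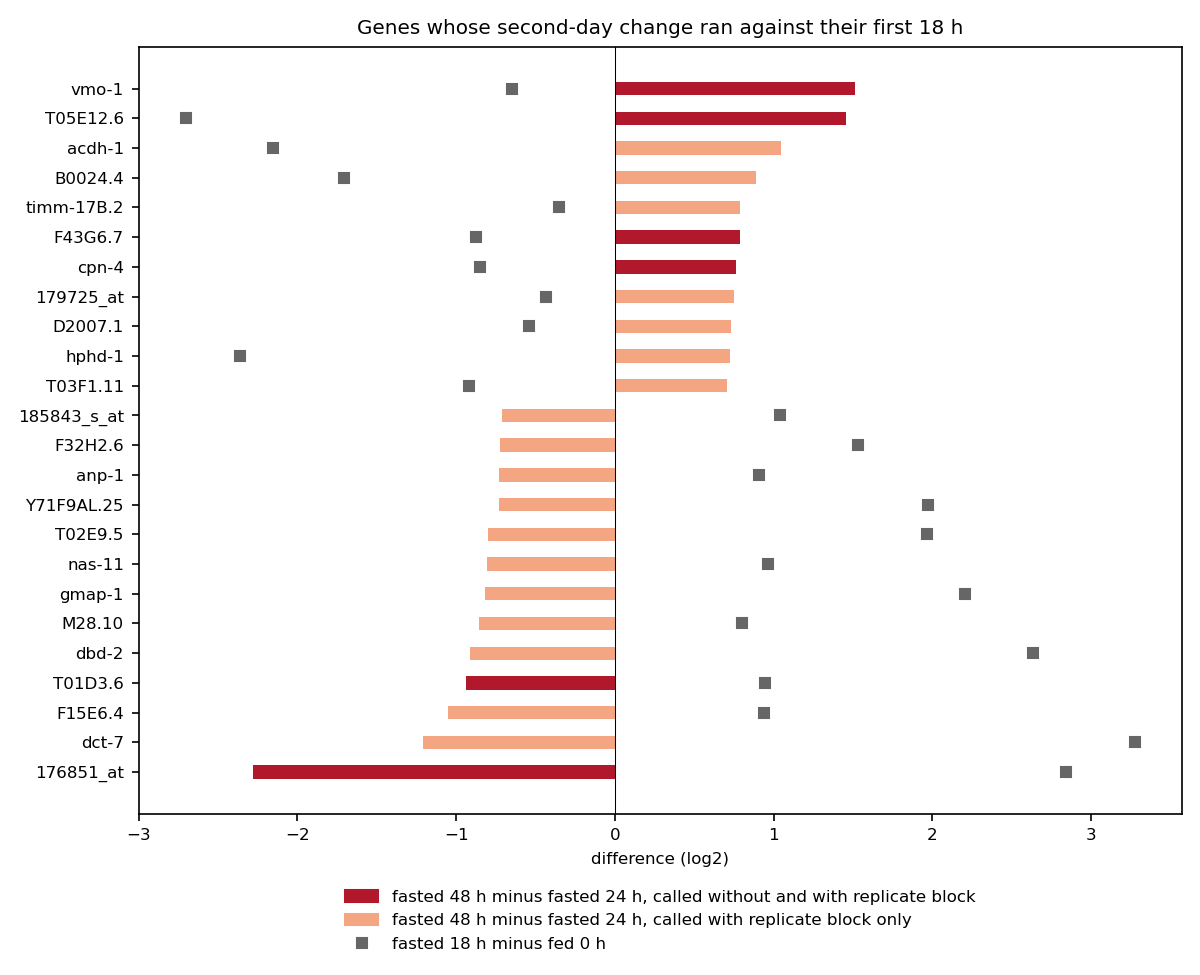
Log2 difference of 48 h against 24 h of fasting (bars) and of 18 h of fasting against fed 0 h (grey squares) for the 24 genes or unnamed probe sets that reversed with the replicate block and differed by at least 0.7, 11 of them higher and 13 lower at 48 h; dark bars were called without and with the block, light bars with the block only. The reversals were smaller than the early changes for most genes, as in acdh-1 (1.04 against -2.16), while vmo-1 went further than it had come (1.51 against -0.65).

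Arrays at 36 h and 18 h, outside the compared groups but part of the same fit, gave the same direction for the 55 probe sets. Worms fasted for 36 h differed from worms fasted for 18 h in 70 probe sets (0.31%), 30 higher (0.133%) and 40 lower (0.177%), and in 252 with the replicate block (1.12%). The count was between 22 and 28 when any 1 of those 4 arrays was left out. Of the 27 gains of the second day, all 27 were higher at 36 h than at 18 h and 14 were called. Of the 28 losses, all 28 were lower at 36 h than at 18 h and 21 were called. Over all 22548 probe sets 11161 were above 0 and 11387 below 0 for 36 h against 18 h. With the replicate block, 99 of the 100 gains and 131 of the 133 losses kept their sign. The intervals overlap in time between 24 h and 36 h, so a shared sign is a repeat of the course on other arrays, in the same experiments.

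**Figure D3:**
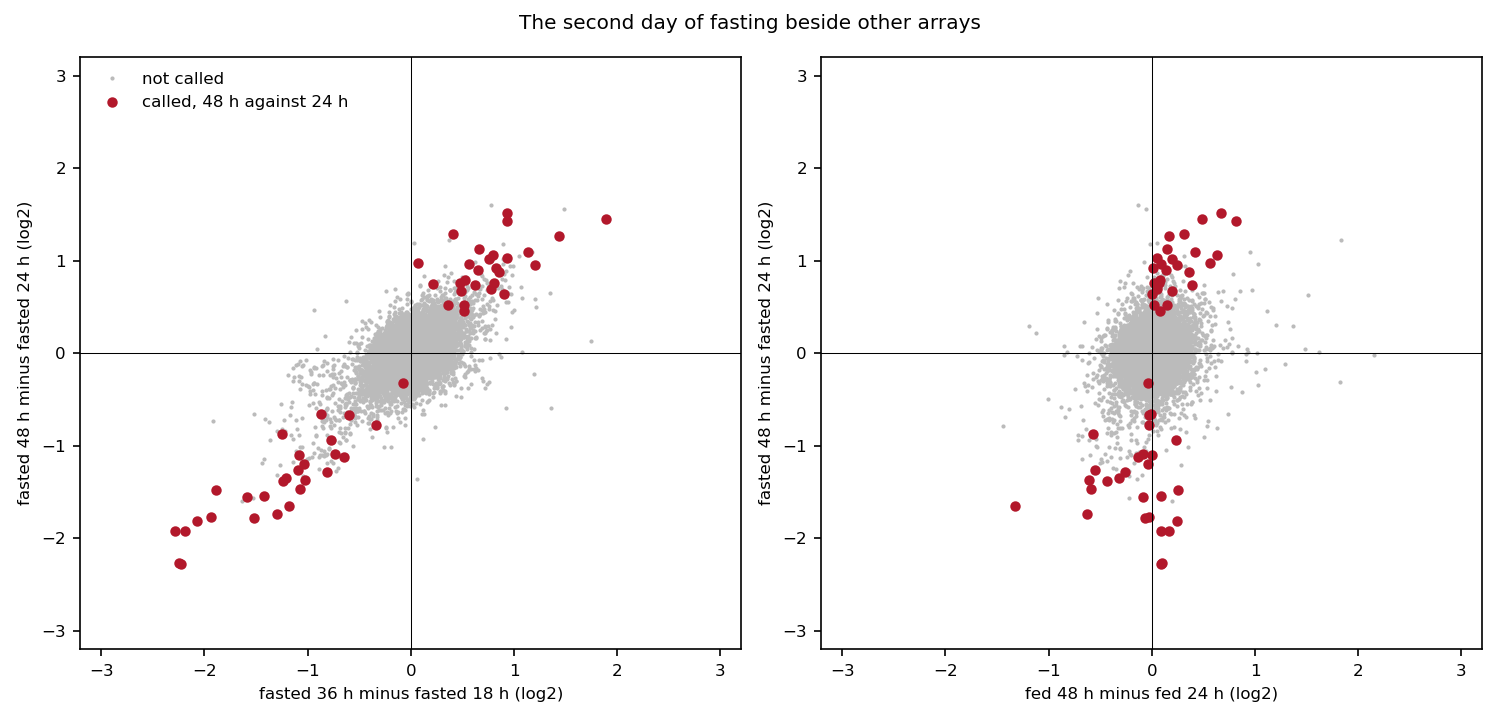
Log2 difference of 48 h against 24 h of fasting (vertical) against 36 h minus 18 h of fasting (left) and 48 h minus 24 h in fed worms (right), 1 point per probe set, with the 55 called probe sets in red; 1 probe set falls outside the left panel. All 55 red points keep their sign on the left, and on the right most gather near 0 on the fed axis.

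In fed worms of the same ages fewer probe sets were called. Fed 48 h against fed 24 h called 5 probe sets (0.0222%), 3 higher (0.0133%) and 2 lower (0.00887%), and 23 with the block (0.102%). Without replicate 2 of the fed 24 h group the count was 2, and it was 3 without replicate 1 of that group and 3 without replicate 2 of the fed 48 h group. Of the 27 fasting gains 26 had the same sign in fed worms, with a median log2 difference of 0.15 there. Of the 28 losses, 19 had the same sign in fed worms and 1, col-20, was called, with a median of -0.04. Over all 22548 probe sets 10977 were above 0 and 11571 below 0 in fed worms. The 55 were chosen for their difference in fasted worms, so the sizes in fed worms are a description, and the interaction is the test.

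The difference between the fasted and the fed change was tested as an interaction, which called 9 probe sets (0.0399%), 0 higher and 9 lower in fasted worms, and 30 with the block (0.133%), 4 higher (0.0177%) and 26 lower (0.115%). Before adjustment (p under 0.05) the interaction was higher in 438 and lower in 375 probe sets. Without replicate 2 of the fasted 48 h group it called 18. The genes that passed were ilys-5 (3 probe sets), C17H12.8 (2), ctsa-1.2, K12H4.7, T01D3.6 and col-183. For the first 5 of these genes the fasted worms fell while the fed worms moved by at most 0.25 in log2. col-183, a collagen gene, differed because the fed worms rose: fasted arrays read 38.01 and 48.7 units at 48 h against 47.4 and 65.1 at 24 h, and fed arrays read 541 and 417 at 48 h against 108 and 106 at 24 h. Its log2 difference was -0.32 in fasted worms (adjusted p = 0.793) and 1.82 in fed worms. Without the block none of the 27 gains passed the interaction test. With it ins-22 (0.97, adjusted p = 0.333, and 0.0021 with the block) and C54F6.20 (0.97, adjusted p = 0.0756, and 0.0144 with the block) were called. For the other 25 gains a larger change in fasted than in fed worms was not shown by either fit.

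Within the 16 measured lysozymes the members went apart. Only ilys-5 was called without the block, and with it ilys-2 was higher and ilys-5 and lys-8 were lower, where the block called 0.443% of all probe sets higher and 0.59% lower. The median log2 difference of the list was -0.08, beside 0.00 for all 17118 genes. ilys-2 read 967 and 927 units at 48 h of fasting against 410 and 366 at 24 h (log2 1.18, adjusted p = 0.0582, and 0.00718 with the block). Its fed arrays lay between 26.8 and 38.4 units at the same ages, so the second day added to a rise that was already 3.47 in log2 at 18 h against 0 h. ilys-3, also an invertebrate-type lysozyme gene, read 2585 and 1862 units at 48 h against 955 and 1084 at 24 h, which was not called either way (0.94, adjusted p = 0.318, and 0.0853 with the block). lys-8 read 1961 and 2990 units against 3448 and 3942 (-0.72, adjusted p = 0.152, and 0.00319 with the block), and its value was -0.43 without replicate 1 of the 48 h group. lys-7, lys-1 and lys-2 gave log2 differences of -0.30, -0.29 and -0.14 and were not called, and lys-2 had already differed by -2.30 in the first 18 h.

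Of 33 lysosomal proteases, ctsa-1.2 was the only member called without the block, where 0.244% of all probe sets were called. The block called 1.03% of all probe sets. With it the aspartyl protease genes asp-14 (log2 -0.82, adjusted p = 0.0173 with the block) and asp-1 (-0.48, adjusted p = 0.0131 with the block) were also lower and cpr-2, a cathepsin B-like gene, was higher. cpr-2 read 268 and 218 units at 48 h of fasting against 95.7 and 88.7 at 24 h (1.18, adjusted p = 0.0595, and 0.0101 with the block), and its fed arrays lay between 94.9 and 134 units. Without quantile normalisation the block calls of asp-14 (-0.62, adjusted p = 0.0899) and asp-1 (-0.32, adjusted p = 0.194) were lost. The median of the list was -0.04. Among 220 C-type lectins, secreted sugar-binding proteins, clec-50 was lower, at 1707 and 1833 units against 2831 and 2520 (-0.66, SE 0.10, adjusted p = 0.00518). clec-61 (0.99) and clec-264 (1.02) were higher only with the block, at adjusted p = 0.00335 and 0.00158. Of the 220 lectins, 0 rose and 1 fell without the block, against 0.12% and 0.124% of all probe sets. With the block 2 rose and 2 fell, against 0.443% and 0.59%. irg-5, named as an infection response gene, read 118 and 145 units at 48 h against 285 and 237 at 24 h (-1.11, SE 0.21, adjusted p = 0.0375). The irg-5 call was lost without quantile normalisation (adjusted p = 0.114), at an offset of 50 (0.062) and whichever 1 of the 4 arrays was left out (0.0843 to 0.43).

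Collagens were the list with the most called losses of the 53 lists examined. Of 146 collagen genes, 0 rose and 5 fell (col-140, col-20, col-34, col-119 and col-181), against 0.12% and 0.124% of all probe sets. With the block 0 rose and 28 fell, against 0.443% and 0.59%. At an unadjusted p under 0.05 limma had 1 collagen above 0 and 50 below, beside 637 and 540 of all 17118 genes. The median collagen was -0.23 in log2, and 117 of the 146 lay below 0, beside 8431 of all 17118 genes. Fed worms moved the same way, with a median of -0.19 and 121 of 146 below 0, beside 8953 of all 17118 genes. The median fasted minus fed difference was -0.08. 36 h against 18 h of fasting gave a median of -0.25 with 130 below 0, and 18 h against 0 h a median of -0.64 with 85 called lower and 2 higher. col-140 read 302 and 539.9 units at 48 h of fasting against 1050 and 1484 at 24 h (-1.74, SE 0.27, adjusted p = 0.00734), and 2307 and 2110 against 3430 and 3308 in fed worms. col-20 read 198 and 267 units against 605 and 639.6 (-1.66, SE 0.19, adjusted p = 0.000437), and in fed worms 348 and 348 against 894 and 896 (-1.32). col-181 read 815 and 1300 units against 2037 and 2536 (-1.204, SE 0.19, adjusted p = 0.00734), while its fed arrays stayed between 4940 and 5317. Several collagen probe sets are of the classes that can bind more than 1 gene, so values of single collagens are uncertain. Replicate 1 was the lower at 48 h in each of these 3 genes, and the adult collagen col-19, at 229 and 382 units against 469 and 729, passed only with the block (-1.14, adjusted p = 0.251, and 0.0381 with the block). Without replicate 1 of the 48 h group the value was -0.73 for col-19 and -0.79 for col-119. In that fit it was -0.91 for col-34, -1.26 for col-140 and -0.87 for col-181. Without replicate 2 of the 24 h group it was -0.72 for col-19 and -1.12 for col-119. There col-34 gave -1.08, col-140 -1.42 and col-181 -0.998. Of the 5 called collagens, all except col-20 lost their call in both of these fits.

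Most body wall muscle genes measured lay below 0. Of 31, 1 fell (tnt-2) and 0 rose, against 0.124% and 0.12% of all probe sets. With the block 3 fell and 0 rose, against 0.59% and 0.443%, adding unc-27, for troponin I, and mlc-1, for a myosin regulatory light chain, and at an unadjusted p under 0.05 limma had 9 lower and 0 higher, where 540 of all 17118 genes were lower and 637 higher. unc-27 read 329 and 414 units at 48 h of fasting against 659 and 769 at 24 h (log2 -1.08, adjusted p = 0.0961, and 0.00746 with the block). mlc-1 read 525 and 618 units against 706 and 868 (-0.57, adjusted p = 0.511, and 0.0303 with the block). The block call of mlc-1 was lost without quantile normalisation (-0.45, adjusted p = 0.0854), and the value was -0.34 without replicate 2 of the 24 h group. The list median was -0.18, with 23 of 31 below 0, but it was -0.07 as deposited, and 36 h against 18 h gave -0.03 and fed worms -0.04. unc-54, the main body wall myosin heavy chain, read 207 and 271 units against 317 and 352 (-0.68, adjusted p = 0.636, and 0.271 with the block). Outside the list, clik-1, a calponin-like repeat gene, read 437 and 534 units against 1125 and 1195 (-1.35, SE 0.15, adjusted p = 0.000299). Its fed arrays read 1124 and 1207 units at 48 h against 1262 and 1565 at 24 h. The calponin family gene cpn-4, given among the reversals, went the other way (0.76, adjusted p = 0.0131 by limma).

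**Figure D4:**
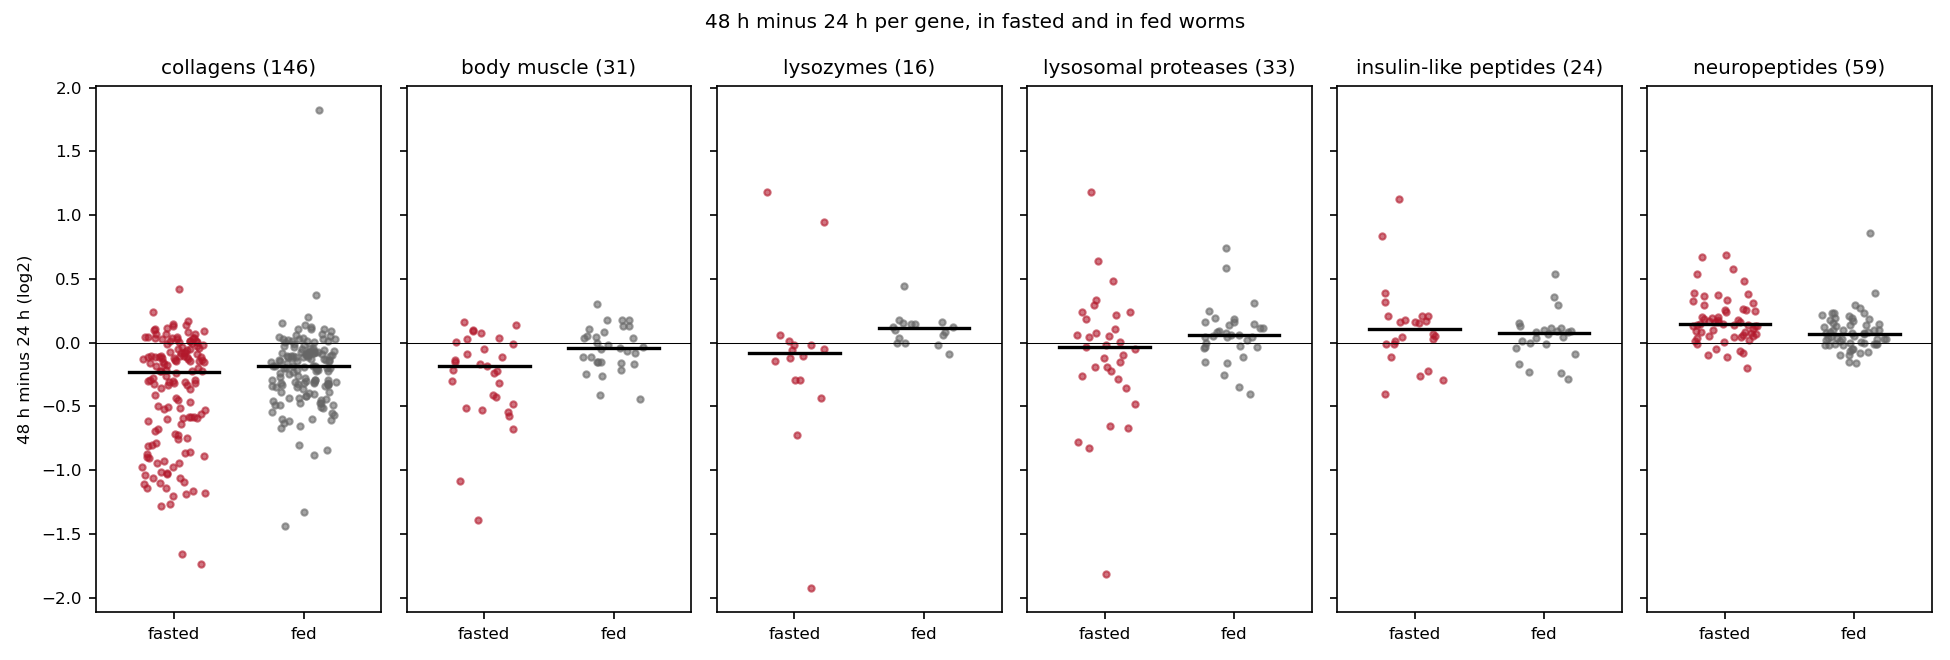
Log2 difference of 48 h minus 24 h for each gene of 6 lists, in fasted (red, left) and fed (grey, right) worms, with bars at the medians and gene numbers in parentheses. Collagens lie below 0 in both (medians -0.23 and -0.19), lysozymes spread between -1.93 and 1.18 in fasted worms, and neuropeptides sit slightly above 0 (medians 0.15 and 0.07).

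Signalling peptides sat slightly above 0. Of 24 insulin-like peptide genes, ins-22 rose, where 0.12% of all probe sets were called higher. With the block, which called 0.443% higher, ins-23 rose too. It read 174 and 109.7 units against 64.9 and 60.2 (log2 0.84, adjusted p = 0.082, and 0.017 with the block). The ins-23 value was 0.52 without replicate 1 of the 48 h group. The list median was 0.11, and 17 of 24 were above 0. ins-35 (-0.40) and ins-7 (-0.30) were among those below 0 and were not called. Of 59 neuropeptide genes 0 were called without the block, where 0.244% of all probe sets were called. In that fit limma had 8 higher and 0 lower before adjustment (p under 0.05), beside 637 and 540 of all 17118 genes. With the block nlp-47 alone was higher, where 0.443% of all probe sets were called higher. nlp-47 read 348 and 389 units at 48 h of fasting against 196 and 242 at 24 h (0.69, adjusted p = 0.487, and 0.0349 with the block), and its value was 0.42 without replicate 1 of the 24 h group. The neuropeptide median was 0.15, with 52 of 59 above 0, and it was 0.07 with 42 above 0 in fed worms and 0.10 with 41 above 0 for 36 h against 18 h. A list of 44 other neuronal genes had a median of 0.06.

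Fat genes gave single changes. lipl-3, a lysosomal lipase gene known to be induced by fasting, read 124 and 158 units at 48 h against 57.1 and 73.1 at 24 h (log2 0.81, adjusted p = 0.152, and 0.0157 with the block), with fed arrays between 52.4 and 57.4. It was the only 1 of 28 lipases called with the block, which called 1.03% of all probe sets. A single call in a list this short is no result about the list. fat-7, a delta-9 desaturase gene, read 185 and 91.2 units against 388 and 182 (-1.15, adjusted p = 0.54, and 0.00737 with the block). Its arrays overlapped between the groups, and the 48 h array was the lower within each replicate number. The fat-7 value was -0.70 without replicate 2 of the 48 h group and -0.67 without replicate 1 of the 24 h group. hrg-11.2, of the heme and iron list, read 107 and 305 units against 358 and 701 (-1.60, adjusted p = 0.316, and 0.00532 with the block). For hrg-11.2 it was -0.86 without replicate 1 of the 48 h group and -1.003 without replicate 2 of the 24 h group.

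Several lists whose medians were far from 0 in the first 18 h had medians near 0 on the second day, while that of the collagens was -0.64 early and -0.23 on the second day. The 17 DAF-16 targets had a median log2 difference of -0.01 for 48 h against 24 h, beside 1.23 for 18 h against 0 h. The 27 Skp1-related, cullin and RBX genes, parts of ubiquitin ligases, had -0.08 beside 1.00, and the 28 autophagy genes -0.03 beside 0.50. The 32 JNK, p38 and AP-1 genes, of the stress kinase pathways, had 0.05 beside 0.64. Among genes of the reproductive system, the 48 of the germline and oocyte list had 0.07 beside -0.89, the 34 meiosis genes -0.01 beside -1.02, and the 20 eggshell genes -0.03 beside -0.84. None of these lists had a member called without the block, where 0.244% of all probe sets were called. In lists this short 0 calls lie near that share and are no result about their genes. limma gave 1 DAF-16 target, 1 JNK, p38 and AP-1 gene and 1 germline and oocyte gene higher and 1 eggshell gene lower before adjustment (p under 0.05), and 0 in the other lists. Of all 17118 genes, 637 were higher and 540 lower at that threshold. With the block, which called 1.03% of all probe sets, 1 eggshell gene was called. The oocyte yolk receptor gene rme-2 read 1957 and 1832 units at 48 h of fasting against 1968 and 1253 at 24 h, both below the fed arrays at 3531 and 3288 against 3362 and 3417.

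Small heat shock genes, for chaperones that hold unfolding proteins, were high throughout in several cases and had no called change. hsp-12.3, which had differed by 4.23 in log2 at 18 h against 0 h, read 1474 and 2070 units at 48 h of fasting against 1654 and 2380 at 24 h, with fed arrays at most 39.7 at the same ages. hsp-12.6 read 1182 and 1832 units against 1010 and 864 (0.50, adjusted p = 0.813), after an early 4.15. hsp-16.2 read 599.5 and 637 units against 609 and 463. None of the 12 was called with or without the block, and limma had 1 higher and 0 lower before adjustment (p under 0.05). Over all probe sets 0.244% were called, and 1.03% with the block. So 0 calls here and in the short lists below are no result about their genes. Unadjusted, 637 of all 17118 genes were higher and 540 lower. The list median was 0.08 beside 0.83 for the first 18 h. Water channels gave 0 calls of 10 either way, with aqp-1 at 2796 and 2811 units against 1615 and 1965 (0.53, adjusted p = 0.641), and limma had 2 higher and 0 lower without adjustment. Trehalose and glycogen genes gave 0 calls of 12, with 1 higher and 0 lower unadjusted, tre-3 (0.49) and tps-1 (0.25) being the furthest above 0. The yolk gene vit-2 read 7995 and 9184 units against 8701 and 10573, and the 7 yolk genes gave 0 calls, with 0 higher and 1 lower unadjusted.

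**Figure D5:**
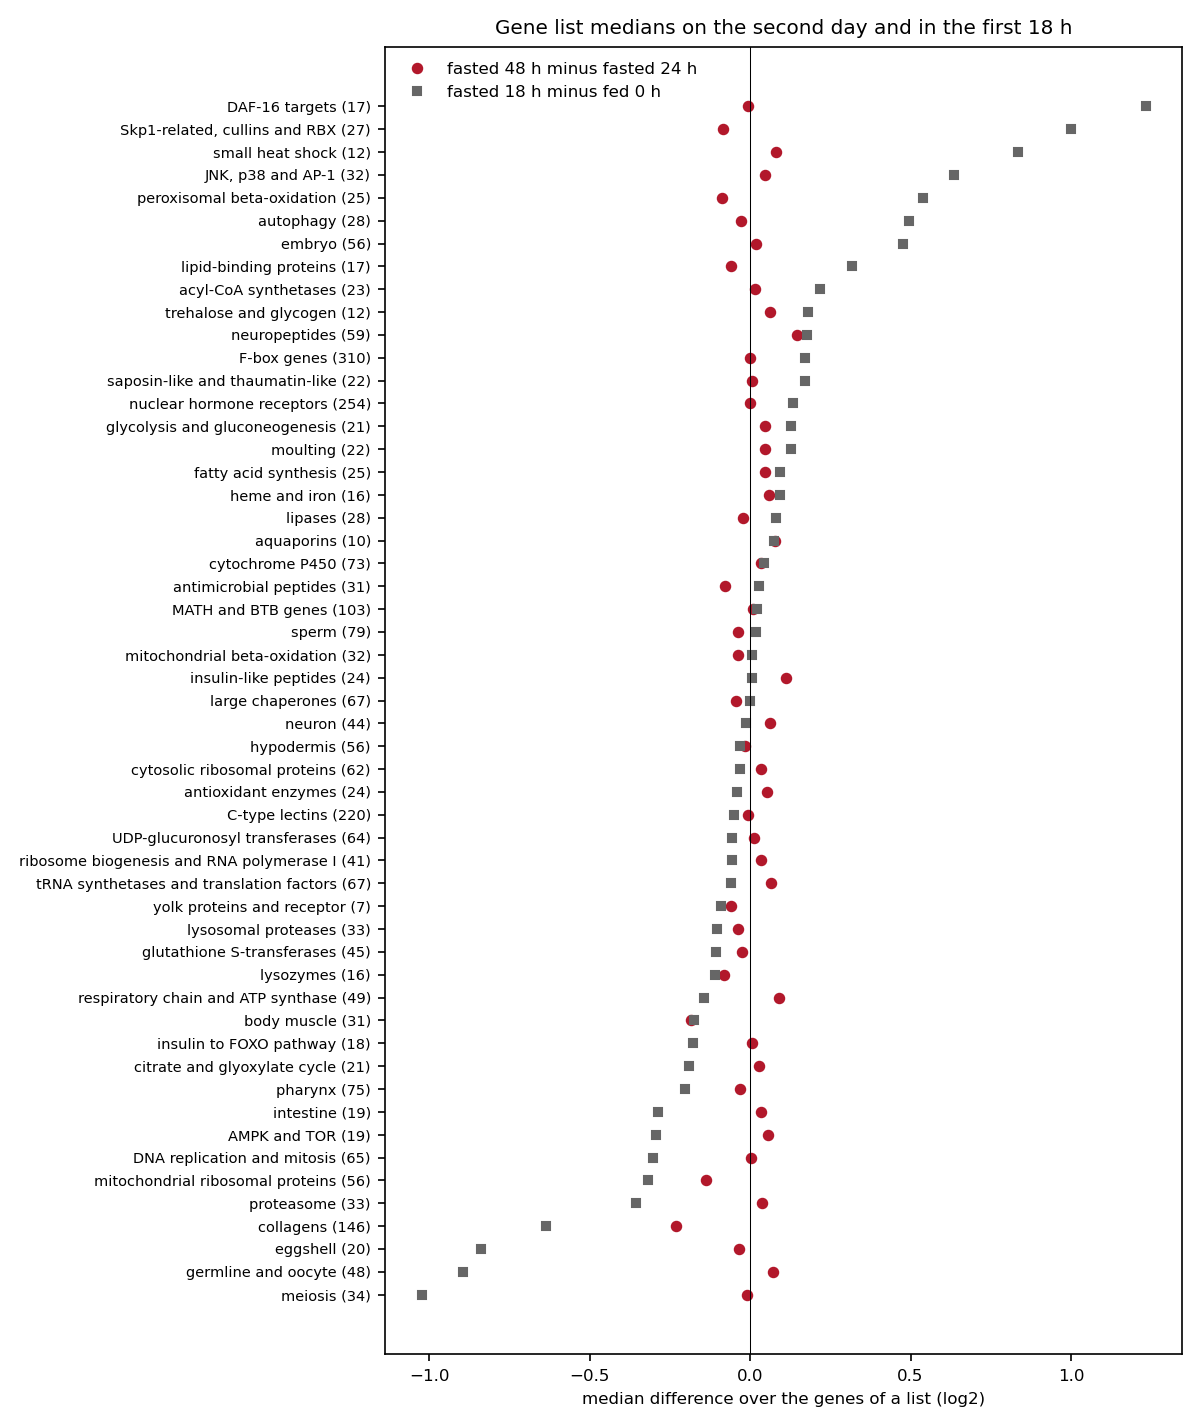
Median log2 difference of 53 gene lists (gene numbers in parentheses) for 48 h against 24 h of fasting (red circles) and 18 h of fasting against fed 0 h (grey squares), sorted by the early difference. The second-day medians run between -0.23 (collagens) and 0.15 (neuropeptides), and the early ones between -1.02 (meiosis) and 1.23 (DAF-16 targets).

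Markers of the worm's main tissues were present on these arrays, with unc-54 of muscle, vit-2 of intestine and rme-2 of oocytes at the levels given above. The lists of other tissues had medians of 0.04 for 19 intestine genes, -0.02 for 56 hypodermis genes and -0.03 for 75 pharynx genes. The intestine genes ran between -0.65 and 1.09, with 5 higher and 1 lower before adjustment (p under 0.05), none called without the block, and 1 higher and 1 lower with it. The part of tissue makeup in the collagen and muscle losses was not tested. Mitochondrial ribosomal protein genes had a median of -0.14 with 47 of 56 below 0, and fed worms had -0.13 with 55 below 0. None of these was called, where 0.244% of all probe sets were called without the block and 1.03% with it. Before adjustment (p under 0.05) limma had 0 higher and 3 lower, beside 637 and 540 of all 17118 genes.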

How the data were processed

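The authors deposited linear intensities, 1 per probe set and array, made with PLIER per the submitters' processing notes; version and normalization are not given in the sources used here. The smallest deposited intensity was 16.0003, and the files carry no detection calls. Of 22625 probe sets, 77 controls were left out. Of the 22548 tested, 20766 had 1 symbol in the platform annotation, 887 had several, 895 had none, and 20701 were found in the RefSeq gene table. A gene was its probe set with the highest mean, which gave 17118 genes. Replicate arrays of a group correlated at 0.986 to 0.994, and the number of arrays limits the precision.

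The 22 time course arrays were converted to log2(intensity + 16), quantile normalised and fitted together with limma 3.58.1 in R 4.3.3 (lmFit, eBayes with intensity trend, 11 groups). Tests were two-sided, with Benjamini-Hochberg adjustment over all probe sets and a threshold of 0.05. The series text speaks of 2 independent experiments for the time course. Deviations of same-numbered arrays correlated at 0.29 to 0.64 over all 55 pairs of groups, and for all 22 of 22 arrays the closest other array, by correlation of deviations, bore the same number. The numbers were taken to pair the arrays only in the fits with the replicate block, and the main fit left the pairing out. The 55 calls of the second day and the 9 of the interaction thus ignore it, and the block gave 233 and 30. The submitters do not state that the numbers mark the experiments. The p-values measure the spread between these samples, which may be partly technical. The fit without the block was tested on simulated data. Noise was drawn independently for each array there, so that test does not cover deviations shared by replicate number.

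Members and gene lists were chosen with earlier results of these data known. Named genes were those with gene-class symbols (letters, a hyphen, a number) that were among the 12 highest and 12 lowest called without overlap, the 4 largest of each class, up to 2 risen and 2 fallen per list, the 5 highest and 5 lowest called interactions, and members of 4 short lists (small heat shock, yolk, aquaporins, trehalose and glycogen). Genes outside this rule, among them genes with sequence names and those called with the block only or not at all, were chosen after their values were seen. Alternatives were other offsets, no quantile normalisation, no intensity trend, the brighter probe sets, the 4 compared arrays alone, the replicate block and leaving out each array.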

Additional observations from a re-analysis of the deposited data

Results flagged for a closer look

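The change between 24 h and 48 h differed between fasted and fed worms, by limma's interaction, in 9 probe sets. It was -2.37, -2.09 and -2.01 (log2, fasted minus fed) in the 3 probe sets of ilys-5, at adjusted p = 2.92e-05, 6.66e-06 and 6.3e-05, where both fasted arrays at 48 h read lower than both at 24 h and fed arrays barely moved. It was -2.06 in ctsa-1.2 (adjusted p = 0.000531), -1.72 and -1.64 in the probe sets of C17H12.8 (0.034 and 0.0239), and -1.47 in K12H4.7 (0.000276). In T01D3.6 it was -1.18 (adjusted p = 0.047), with fasted worms lower and fed worms higher at 48 h. In col-183 it was -2.14 (adjusted p = 0.000255), and there the larger change was the rise in fed worms.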

How the results depend on the processing

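Calls between 48 h and 24 h of fasting numbered 55. The replicate block gave 233, the block without quantile normalisation 341 (245 higher, 96 lower), and a fit of only the 4 compared arrays 4, with 2 residual degrees of freedom. Other scalings, offsets, filters and the fit without trend gave 48 to 74, and leaving out 1 array gave 18 to 75. The interaction called 9, with 30 under the block, 29 under the block without quantile normalisation, and 6 to 18 with 1 array left out. Fed 48 h against 24 h called 5, with 3 among the brighter probe sets, 23 under the block, 29 under the block without quantile normalisation, and 2 to 6 with 1 array left out. Fasted 18 h against fed 0 h called 8247, and 5055 to 7681 with 1 array left out. Fasted 36 h against 18 h called 70, with 252 under the block, 277 under the block without quantile normalisation, and 22 to 28 with 1 array left out. An array left alone in its group was assumed to vary like the other groups, and the cause of these moves was not tested beyond the smaller number of arrays. The alternatives were followed for 32 genes and single probe sets called without the block, not all of them named in this text. Of these 0 changed direction under any alternative, 32 were called with the block and 2 in the fit of only the 4 compared arrays. Most of the 32 lost their call without replicate 1 of the 48 h group, and most did without replicate 2 of the 24 h group. Some were lost when either of the other compared arrays was left out. The block without quantile normalisation was added after the data were seen. With 2 arrays a group, dim probe sets near the lowest deposited value have log2 differences that depend on the offset.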

Other observations

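Fed worms rose in col-183 (log2 1.82) and in dhs-26, a short-chain dehydrogenase gene, which read 534 and 274 units in fed worms at 48 h against 132 and 93.1 at 24 h. In fasted worms dhs-26 read 44.8 and 52.5 units at 48 h against 38.6 and 49.1 at 24 h. The log2 difference was 1.49 in fed worms (adjusted p = 0.016 by limma) and 0.04 in fasted worms, and dhs-26 was not among the called interactions. pugs-8 fell in fed worms, by 0.85 on the log2 scale, with 74.6 and 73.3 units at 48 h against 152 and 129 at 24 h, and it had fallen by 1.86 in the first 18 h of fasting.

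The 2 arrays of some fasted groups disagreed for clx-1, which read 53.99 and 30518 units at 48 h, 45.9 and 7299 units at 24 h, and 6066 and 34129 units at 36 h of fasting. At 18 h of fasting, and in fed worms at 0, 24 and 48 h, no array read above 92.8 units. The gene was not called for 48 h against 24 h (log2 0.48, SE 1.87, adjusted p = 0.999).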
